A study of Mus musculus with 22 samples.

Results

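CREB1 and C/EBP beta were compared in unstimulated kidney collecting duct cells: which genes lay near a binding site of CREB1 alone, of C/EBP beta alone, or of both. The members were the peaks of the CREB1 and the C/EBP beta list after vehicle, 994 of the 3801 peaks of the series, and the protein-coding genes with a peak centre within 5000 bp of either gene end, 1190 of 21631. Of these genes, 1079 (4.99% of all protein-coding genes) were near CREB1 peaks alone, 98 (0.453%) near C/EBP beta peaks alone and 13 (0.0601%) near peaks of both. Each factor had been immunoprecipitated with its bound DNA and the DNA sequenced (ChIP-seq), and a peak is a region the authors called as bound. The cells were mpkCCD clone 11, a single clone of a mouse cortical collecting duct line, used at passages 6 to 12. They were held for 24 h without serum and hormones and then given vehicle for 30 min, a condition common to both lists compared. A second arm received 0.1 nM dDAVP, a V2 receptor agonist, for 30 min. Of 22 samples, 4 were CREB1 and 2 were C/EBP beta immunoprecipitates after vehicle, and 1 vehicle input library served an experiment of each antibody. The deposited data were 1 peak list per antibody and treatment, so there is no spread between replicates, and the sequencing depth behind each list is unknown. Absence of a peak means only that none was called, and a factor may still be bound there. The lists hold no expression values, so the cell type could not be checked against RNA.

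CREB1 is a leucine zipper factor that binds the cAMP response element (CRE) and is phosphorylated by protein kinase A when cAMP rises, as it does in the collecting duct under vasopressin. It is known for sitting at CpG-rich promoters also in unstimulated cells. C/EBP beta is a leucine zipper factor of acute phase, metabolic and stress responses. It binds its own palindrome as a dimer and, together with ATF4, a composite element in genes of the amino acid and endoplasmic reticulum (ER) stress responses.

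The letters at the sites differed between the factors, and those that carry the comparison are shown first. All are from RefSeq promoter windows of GRCm38.p6 (mm10), which run from 250 bases before to 50 after a gene start, and all are written in the direction of the gene. They were chosen after the motif matches were known. The windows of Man1b1 and Spty2d1 were 2 of the 3 that peaks of both factors overlapped. Capitals mark TGACG or CGTCA (the short CRE on either strand) and TTGCGCAA (the C/EBP palindrome, which also fits the C/EBP core TTGCNNAA).
Man1b1, chr2:25332493-25332792, plus strand: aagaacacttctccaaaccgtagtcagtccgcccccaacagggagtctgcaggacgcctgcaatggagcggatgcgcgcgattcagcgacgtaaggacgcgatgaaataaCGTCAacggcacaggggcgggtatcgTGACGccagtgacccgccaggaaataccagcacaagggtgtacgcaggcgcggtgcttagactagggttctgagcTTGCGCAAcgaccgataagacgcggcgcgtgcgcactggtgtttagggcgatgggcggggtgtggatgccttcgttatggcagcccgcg
Spty2d1, chr7:47008365-47008664, minus strand: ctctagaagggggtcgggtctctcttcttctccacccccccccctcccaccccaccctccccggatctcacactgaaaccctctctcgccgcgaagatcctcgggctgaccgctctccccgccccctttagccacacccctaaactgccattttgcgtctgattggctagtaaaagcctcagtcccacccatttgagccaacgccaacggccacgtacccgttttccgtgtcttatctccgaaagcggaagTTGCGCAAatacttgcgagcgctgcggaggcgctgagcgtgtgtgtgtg

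Next are stretches under CREB1 peaks without a C/EBP beta peak, with 30 bases on either side of the outermost match where the window allows. Capitals mark the full CRE palindrome TGACGTCA in H4c1, Nup133, Nup214 and Rpl13, and the short CRE in Fos, the classic CREB target, whose window holds no full palindrome.
H4c1, chr13:23761246-23761377, minus strand: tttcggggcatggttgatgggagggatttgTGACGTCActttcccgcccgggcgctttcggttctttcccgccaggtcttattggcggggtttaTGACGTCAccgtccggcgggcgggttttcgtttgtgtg
Nup133, chr8:123949295-123949419, minus strand: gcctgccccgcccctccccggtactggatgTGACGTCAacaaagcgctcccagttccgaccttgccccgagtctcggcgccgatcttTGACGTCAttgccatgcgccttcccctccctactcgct
Nup214, chr2:31974376-31974443, plus strand: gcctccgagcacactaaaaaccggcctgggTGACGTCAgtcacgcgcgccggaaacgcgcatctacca
Rpl13, chr8:123102296-123102363, plus strand: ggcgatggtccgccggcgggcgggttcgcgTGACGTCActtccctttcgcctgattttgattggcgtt
Fos, chr12:85473731-85473858, plus strand: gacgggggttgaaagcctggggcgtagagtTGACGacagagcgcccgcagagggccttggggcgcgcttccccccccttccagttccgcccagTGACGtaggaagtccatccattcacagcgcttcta

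The third set lies under C/EBP beta peaks without a CREB1 peak and holds the C/EBP-ATF composite, capitals, read here as TTGCATCA. These 5 genes were all those whose window under such a peak held it.
Iars, chr13:49682107-49682174, plus strand: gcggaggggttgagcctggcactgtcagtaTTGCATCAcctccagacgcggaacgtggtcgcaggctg
Chac1, chr2:119351019-119351086, plus strand: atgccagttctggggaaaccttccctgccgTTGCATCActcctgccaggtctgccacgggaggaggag
Herpud1, chr8:94386287-94386354, plus strand: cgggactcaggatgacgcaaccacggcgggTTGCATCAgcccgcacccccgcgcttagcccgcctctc
Got1, chr19:43524670-43524737, minus strand: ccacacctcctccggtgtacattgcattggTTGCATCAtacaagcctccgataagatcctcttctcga
Aars, chr8:111033700-111033767, plus strand: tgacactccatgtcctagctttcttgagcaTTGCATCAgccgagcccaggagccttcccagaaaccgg

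The fourth set shows the C/EBP palindrome TTGCGCAA, capitals, in 4 of the 9 genes whose window under a C/EBP beta peak without a CREB1 peak held it.
Rpia, chr6:70792183-70792250, minus strand: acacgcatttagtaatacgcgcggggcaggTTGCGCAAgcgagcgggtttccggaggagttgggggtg
Mpc2, chr1:165461038-165461105, plus strand: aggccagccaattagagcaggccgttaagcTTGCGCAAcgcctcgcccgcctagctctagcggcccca
Pnp, chr14:50944141-50944208, plus strand: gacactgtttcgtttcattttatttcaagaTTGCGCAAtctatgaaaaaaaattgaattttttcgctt
Smad6, chr9:64022061-64022128, minus strand: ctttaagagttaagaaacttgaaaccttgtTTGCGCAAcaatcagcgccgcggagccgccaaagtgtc

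The CREB1 list held 785 peaks that covered 237831 bp, with widths of 104 to 827 bp and a median of 290 bp. The C/EBP beta list held 209 peaks over 49019 bp, with widths of 125 to 446 bp and a median of 226 bp. CREB1 peaks were wider by 64 bp at the median (permutation test over peaks, two-sided, p = 2e-05, the smallest value it can give). Width depends on depth and on how replicates were combined, and neither is known here. The tests in this comparison take peaks as units and describe these lists, not the spread between cultures.

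CREB1 peaks lay at gene ends and most C/EBP beta peaks did not. Of 783 CREB1 peaks placed on a chromosome, 746 had their centre within 5000 bp of a protein-coding gene end (95.3%, 95% Wilson interval 93.6 to 96.6). Of 209 C/EBP beta peaks, 88 did (42.1%, 35.6 to 48.9). The difference was 53.2 percentage points (Fisher's exact test, two-sided, adjusted p = 9.11e-64). Inside a gene and more than 5000 bp from its ends lay 18 CREB1 peaks (2.30%) and 56 C/EBP beta peaks (26.8%), a difference of -24.5 points for CREB1 minus C/EBP beta (Fisher's exact test, adjusted p = 5.79e-26). Outside genes at that distance were 19 CREB1 peaks (2.43%) and 65 C/EBP beta peaks (31.1%). The median distance to a gene end was 62 bp for CREB1 and 9058 bp for C/EBP beta. More than 50000 bp from any gene end lay 1 CREB1 peak and 43 C/EBP beta peaks (20.6%).

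**Figure D1:**
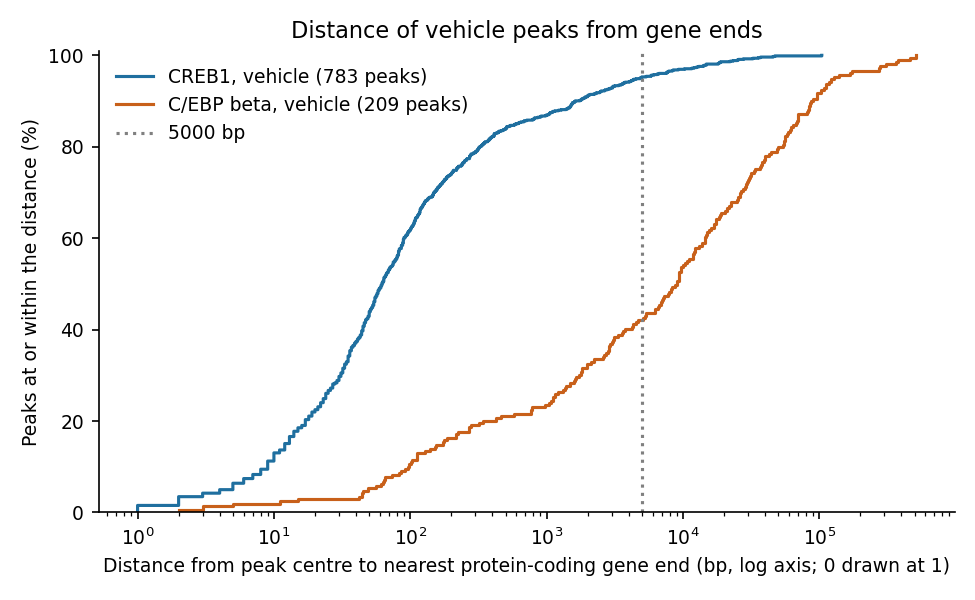
Cumulative share of vehicle peaks (percent) against the distance from the peak centre to the nearest protein-coding gene end (bp, log axis), for 783 CREB1 and 209 C/EBP beta peaks. At 5000 bp, the dotted line, the CREB1 curve stands at 95.3% and the C/EBP beta curve at 42.1%.

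The authors' scores of C/EBP beta peaks overlapped between these positions. Its median was 127.5 in the 88 peaks within 5000 bp of a gene end, 120 in the 56 inside genes and 147 in the 65 outside genes, over a whole range of 42 to 806. CREB1 peaks carry no score. Their median width was 291 bp within 5000 bp of a gene end and 285 bp outside genes beyond it.

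Many CREB1 peaks lay by pairs of genes. A CREB1 peak had 2 or more protein-coding genes within 1000 bp in 177 cases (22.6%), and a C/EBP beta peak in 6 (2.87%). Within 500 bp of a RefSeq start lay 625 CREB1 peaks (79.6%) and 39 C/EBP beta peaks (18.7%). Of those 625, 110 (17.6%, 14.8 to 20.8) had starts on both strands in reach, as head-to-head gene pairs do. Of the 39, none had (0%, 0 to 8.97). Among all 21020 RefSeq starts, 7.94% had a start on the other strand within 500 bp. That share counts starts and measures from a start, whereas the peak shares count peaks and measure from a peak centre. In the peak shares the 2 starts may therefore lie up to 1000 bp apart, so the measures are not alike. Each CREB1 peak that was used stood for 1.47 genes and each C/EBP beta peak for 1.26, so the gene counts hold neighbours of the bound promoter too.

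The genes near CREB1 peaks numbered 1092, which is 5.05% of all 21631 protein-coding genes, and those near C/EBP beta peaks 111, or 0.513%. The 13 genes of both were 1.19% of the CREB1 genes and 11.7% (6.97 to 19.0) of the C/EBP beta genes. Among CREB1-alone genes with a known start, the peak was nearer the start than the other end in 795 of 923 (86.1%). Its median distance to the gene was 96 bp, and 842 of 1079 genes had it within 1000 bp. Of 730 genes with the peak within 1000 bp of the start, 585 (80.1%) had it upstream, and the median position over all 730 was -51 bp. Among C/EBP beta-alone genes, the peak was nearer the start in 52 of 70 (74.3%), at a median distance of 921.5 bp, and 50 of 98 had it within 1000 bp. Where it was within 1000 bp of the start, 30 of 36 had it upstream, and the median position over all 36 was -115 bp.

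Peaks of both factors at the same place were few. By the rule of at least 1 shared base, 5 C/EBP beta peaks overlapped a CREB1 peak, 2.39% (1.03 to 5.48) of the 209 and 0.637% of the 785. No other C/EBP beta peak had a CREB1 peak centre within 1000 bp of its own. With the 5 included, 6 had one within 5000 bp and 22 (10.5%) within 50000 bp. The median spacing was 584271 bp over the 208 C/EBP beta peaks on chromosomes with a CREB1 peak.

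**Figure D2:**
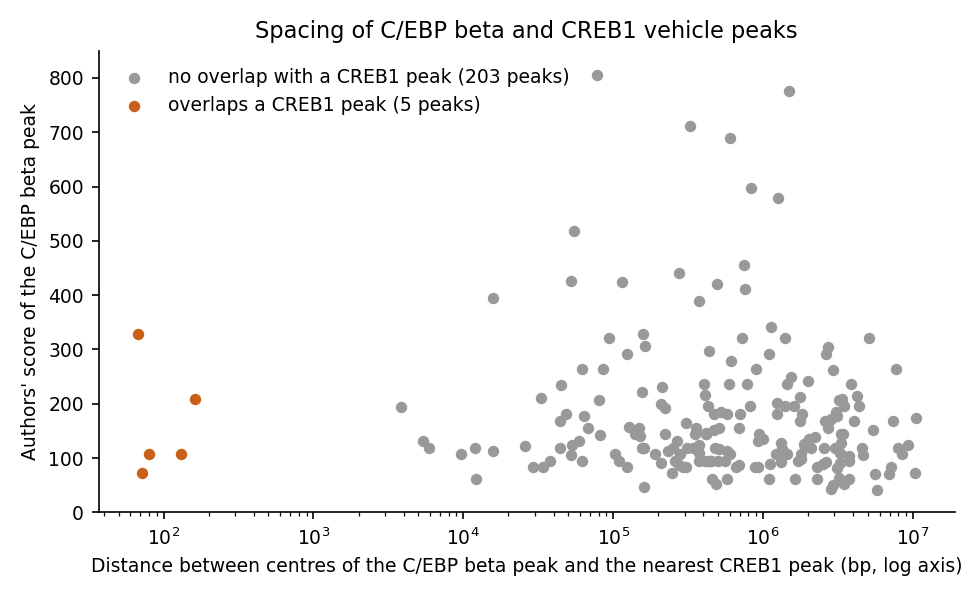
The authors' score of each C/EBP beta vehicle peak against the distance between its centre and that of the nearest CREB1 vehicle peak (bp, log axis), for 208 peaks. The 5 overlapping peaks sit between 67 and 163 bp, and the next lies at 3816 bp.

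The overlapping site with the highest C/EBP beta score was beside Neat1, a long noncoding RNA that builds nuclear paraspeckles. There the C/EBP beta peak at chr19:5845538-5845796 scored 329, rank 17 of the list, and shared 166 bases with the CREB1 peak at chr19:5845498-5845703. No protein-coding gene end was within 5000 bp, so the site gave no gene of both. At Spty2d1, a histone chaperone gene, the C/EBP beta peak at chr7:47008329-47008506, score 107, shared 112 bases with chr7:47008234-47008440. At Man1b1, an ER mannosidase that marks misfolded glycoproteins for degradation, the C/EBP beta peak at chr2:25332562-25332772 scored 73 and lay wholly inside the 399 bp CREB1 peak at chr2:25332396-25332794.

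The printed windows show how the matches were placed at 2 of these sites. In Man1b1 a C/EBP palindrome stood near the start and short CREs on both strands stood further upstream. In Spty2d1 the C/EBP palindrome lay just after the start and the window held no short CRE. The CREB1 centre there was 77 bp inside the start, beyond the window, so most of that CREB1 peak was not searched. None of the 3 windows overlapped by both factors held the full CRE palindrome, and all 3 held the C/EBP core.

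At the other genes of both factors the peaks were apart. Of the 13, 6 had overlapping peaks, among them Man1b1, Spty2d1, Cenpl, a centromere protein gene, and Vps11, which encodes a subunit of lysosomal tethering complexes, and in the other 7 the centres were 3816 to 52623 bp apart. The CREB1 peak was within 1000 bp of either end of the gene in 11 of 13, the C/EBP beta peak in 5, and both in the same 5. In the 10 genes with a known start, the CREB1 peak was nearer the start in 10 and the C/EBP beta peak in 5. For Irf2bpl the CREB1 centre lay 26 bp inside the start and the C/EBP beta centre 3790 bp upstream. For Ice2, a subunit of the little elongation complex of small nuclear RNA genes, the CREB1 centre was 12 bp from the start side and the C/EBP beta centre 1075 bp from the other end.

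In several of these genes the C/EBP beta peak lay nearer to a neighbour. That of Nol8, a nucleolar protein gene, was 3111 bp from the gene and 3 bp from Iars, the isoleucyl-tRNA synthetase. That of Rpusd2, a pseudouridine synthase family gene, was 4704 bp away and 217 bp from Knl1, a kinetochore scaffold. That of Mettl23 was 3473 bp away and 462 bp from Srsf2, a splicing factor. Rprd1b, whose product binds RNA polymerase II, had the CREB1 centre 43 bp from its start side and the C/EBP beta centre 2848 bp past its other end. Ddx19b, an RNA helicase of mRNA export, had gene-end distances of 3903 bp for CREB1 and 1972 bp for C/EBP beta. Its CREB1 centre was 78 bp upstream of a RefSeq start inside Ddx19b. Its CREB1 peak was also 70 bp from Aars, the alanyl-tRNA synthetase, and its C/EBP beta peak overlapped the Aars window printed above, at a start inside that gene. Aars counted as CREB1 alone because that start is more than 5000 bp from either gene end.

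**Figure D3:**
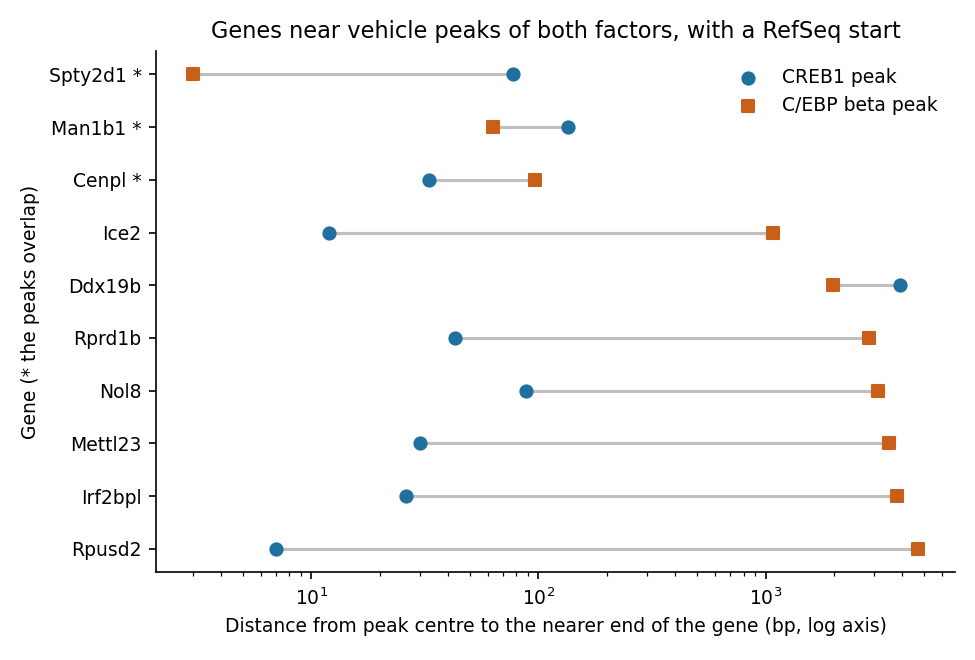
Distance between peak centre and nearer end of the gene (bp, log axis) for the 10 genes near vehicle peaks of both factors that have a RefSeq start, circles for CREB1 and squares for C/EBP beta; an asterisk marks genes whose peaks overlap. The 3 genes with a C/EBP beta peak within 1000 bp all carry an asterisk, and the C/EBP beta squares of the other 7 lie between 1075 and 4704 bp.

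The motif content of the promoters under the peaks differed by factor. Windows overlapped by a CREB1 peak and by no C/EBP beta peak (774 windows of 701 genes) held the CRE palindrome in 23.6% (20.8 to 26.8), against 2.26% of all 21020 windows. They held the short CRE TGACG, which the palindrome contains, in 85.5% (82.9 to 87.8), against 23.8% of all windows. The C/EBP palindrome was in 0.517% of them and the composite in 0.258%, against 0.224% and 0.852% of all windows. Windows overlapped by a C/EBP beta peak and by no CREB1 peak (36 windows of 31 genes) held no CRE palindrome (0%, 0 to 9.64), and 27.8% (15.8 to 44.0) held the short CRE. The C/EBP palindrome was in 30.6% (18.0 to 46.9) and the composite in 13.9% (6.08 to 28.7). The core TTGCNNAA, which includes the C/EBP palindrome, was in 58.3% (42.2 to 72.9), against 10.3% of all windows and 7.62% of those under CREB1. Windows of one gene, and of gene pairs on opposite strands, share letters, so they are not independent.

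**Figure D4:**
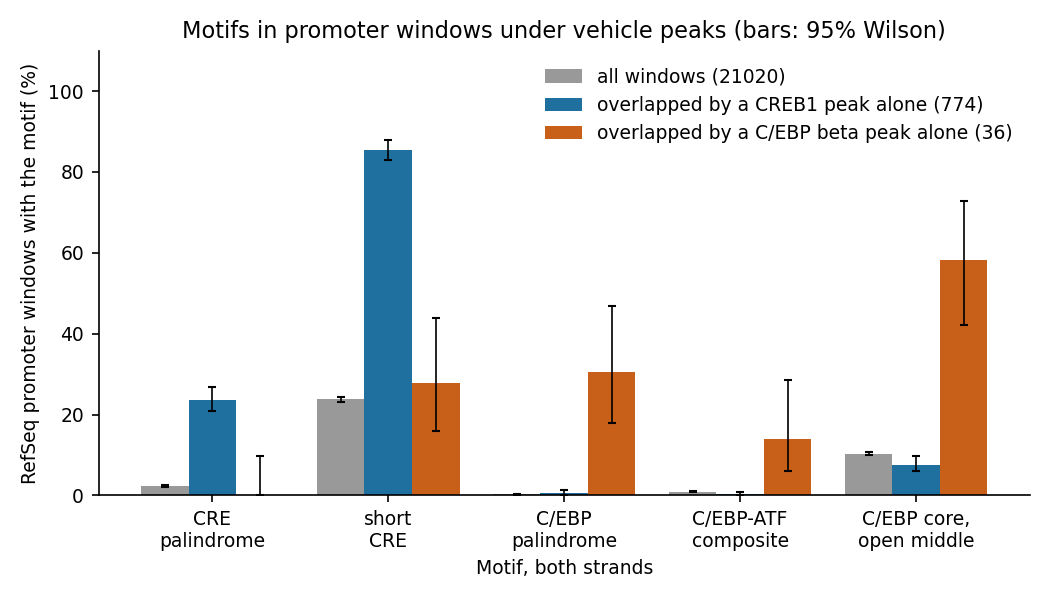
Share of 300-base RefSeq promoter windows (percent) with each motif on either strand, for all windows and for those overlapped by a peak of a single factor; bars are 95% Wilson intervals. The short CRE stands at 85.5% under CREB1 and 27.8% under C/EBP beta, and the open C/EBP core at 7.62% and 58.3%.

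Taken over all windows of the genes in a class, whether or not the peak overlapped the window, the shares were lower. For CREB1 alone the CRE palindrome was in 16.8%, the short CRE in 66.3%, the C/EBP palindrome in 0.530%, the composite in 0.353% and the open core in 8.75%. For C/EBP beta alone these were 1.08%, 31.2%, 8.60%, 4.30% and 22.6%. Matches of the factor's own palindrome, and of the composite under C/EBP beta, lay close to the peak centre. Only the parts of peaks inside promoter windows could be searched. In CREB1 peaks the CRE palindrome was found in 153, at a median of 18.5 bp from the centre, with 157 of 180 matches within 50 bp. The short CRE was at 28 bp there, with 699 of 1024 within 50 bp. Each palindrome holds the short CRE once on either strand, so the palindromes are counted again among these matches. In C/EBP beta peaks the C/EBP palindrome was at a median of 16 bp, with 10 of 11 within 50 bp, and the composite at 6 bp, with 5 of 5. Motifs of the other factor lay further out: medians were 63 bp for the short CRE in C/EBP beta peaks and 120 bp for the open core in CREB1 peaks. The short CRE and the C/EBP palindrome each hold a CpG, and CpG content was higher under peaks of either factor. The median was 25 CpG per window under CREB1 peaks, 21 under C/EBP beta peaks and 13 in all windows. Windows were not matched on CpG content, and its part in the motif shares of either factor was not tested.

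In windows under a C/EBP beta peak without a CREB1 peak, the composite was found at 5 genes. Iars and Aars charge tRNA with amino acids. Chac1 degrades glutathione, Herpud1 serves ER-associated degradation, and Got1 is the cytosolic aspartate aminotransferase. The C/EBP beta peak was 3 bp from the gene end of Iars, 185 bp from Chac1, 102 bp from Herpud1 and 98 bp from Got1, with scores of 84, 95, 95 and 141. The C/EBP palindrome windows were those of Rpia, an isomerase of the pentose phosphate pathway, Mpc2, a subunit of the mitochondrial pyruvate carrier, Pnp, a purine phosphorylase, Smad6, an inhibitor of BMP signalling, and Abcc5, Ccdc77, Cep295, Clec12a and Fam110a. Of the 4 shown, Rpia had the highest score, 426, with the peak centre 83 bp from the gene.

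The widest CREB1 peaks near genes without C/EBP beta reached 827 bp. Csnk1g2, a casein kinase 1, had the widest, at chr10:80621875-80622701 and 388 bp from the gene. Osbp, an oxysterol-binding lipid exchanger, had 618 bp and Trmt10a, a tRNA methyltransferase, 600 bp. H4c1, a histone H4 gene with 2 CRE palindromes in its window, had 593 bp. BC005624, Rfx1, Oaz1, Trp53inp2, Tpr, Sf1, Fam76b and Esyt2 followed with 530 to 592 bp. Of these 12, Rfx1 (3056 bp) and Esyt2 (1804 bp) had the peak more than 1000 bp from the gene end. In both, the peak still overlapped the promoter window of a RefSeq start.

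The 12 best-scored C/EBP beta peaks near genes without CREB1 had scores of 264 to 776. Ptpn12, a tyrosine phosphatase, had the highest, at chr5:21054355-21054723 and 1372 bp inside the gene. Abhd11, a mitochondrial hydrolase, had 519, Cotl1, an actin-binding protein, 456, and Rbm39, a splicing factor, 424. Trib1, a pseudokinase that directs C/EBP proteins to degradation, had 441, with the peak 112 bp from the gene. Hmox1, the heme oxygenase, had 395 with the peak 44 bp away. Gatb, Ndrg1, Gm31513, Slc17a5 and Hnrnph1 had scores of 264 to 411. The score is the authors' own value and was used only to rank peaks within this list.

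Lists of genes for the making and handling of RNA and protein held larger shares near CREB1 than the 5.05% of all genes. No test of enrichment was made. Among 55 genes of the transcription machinery, 12 (21.8%) were near CREB1 and none near C/EBP beta. Tbp, the TATA-binding protein, Taf2, Taf7, Med6, Polr2k and Gtf2e1 had the peak 4 to 12 bp from the gene end. Among 47 splicing factor genes, 10 (21.3%) were near CREB1, with Dhx38, Eftud2, Srsf5, Srsf11, Prpf31 and Srsf3 at 14 to 64 bp. In the same list 3 (6.38%, against 0.513% of all genes) were near C/EBP beta: Sf3b2 at 45 bp, Rbm39 at 92 bp and Srsf2 at 462 bp. Among 52 DEAD and DEAH box helicases, 12 (23.1%) were near CREB1, of which Ddx19b was also near C/EBP beta. Among 45 genes of the nuclear pore and nuclear transport, 9 (20.0%) were near CREB1 and none near C/EBP beta. Nup214 had the peak centre on the gene end, Tpr at 19 bp, Ranbp2 at 35 bp and Nup133 at 49 bp.

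For tRNA modification a pattern of gene symbols gave 107 genes, of which 20 (18.7%) were near CREB1 and 3 near C/EBP beta. It also took in genes with other roles, such as the phosphatase Dusp16 and several Mettl genes. A narrower pattern, made after the members had been seen, gave 48 genes, with 17 (35.4%) near CREB1 and none near C/EBP beta, and it is not independent of what had been seen. Trmt61a and Trmt44, both tRNA methyltransferases, Dus2, which makes dihydrouridine, and Tyw1, of wybutosine synthesis, were in both sets, at 3 to 32 bp. The pattern for cytosolic ribosomal proteins gave 98 genes and 18 (18.4%) near CREB1, including the kinases Rps6kb2 and Rps6ka5, and the narrower one 84 and 16 (19.0%). Rpl24 and Rpl34 had the peak at 13 bp, Rpl21 at 30 bp and Rpl13 at 44 bp. The pattern for Rab GTPases gave 61 genes and 11 (18.0%) near CREB1, including Rab5if, which is no GTPase, and the narrower one 59 and 10 (16.9%). Rab13, Rab11a, which recycles vesicles to the apical membrane, and Rab5a, of early endosomes, were at 9, 10 and 55 bp. Neither list had a gene near C/EBP beta.

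Genes of ER folding and ER stress were near CREB1 in 10 of 36 (27.8%), the highest share among the 27 lists before any was narrowed. The narrowed tRNA modification list stood higher. Creb3l2, Hyou1, Eif2ak3 (the ER stress kinase PERK), Sel1l, Dnajb9 and Dnajb11 had the peak at 55 to 154 bp, and Hspa5, the main ER chaperone, at 186 bp. Herpud1 was the 1 member near C/EBP beta. In the list for DNA replication and cell cycle, 10 of 42 (23.8%) were near CREB1, among them Rfc4 at 36 bp, Mcm5 at 54 bp, Rrm1 at 110 bp and Pcna at 128 bp, and 1 near C/EBP beta, Mcm3 at 140 bp. Respiratory complex I had 6 of 37 (16.2%), mitochondrial ribosomal proteins 8 of 78 (10.3%), clustered histone genes 7 of 68 (10.3%) and the ubiquitin and proteasome list 5 of 60 (8.33%). Complex I and mitochondrial ribosomal proteins had none near C/EBP beta, and the other 2 lists had 1 each, H4c14 and Psmb3.

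Some families did not exceed the background for CREB1. Zfp genes had 17 of 394 (4.31%) and solute carriers 10 of 371 (2.70%) near CREB1, with 1 and 2 near C/EBP beta. The circadian clock list had 1 of 24, Per1 at 102 bp.

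Classic CREB targets were near CREB1 in 7 of 37 (18.9%) and near C/EBP beta in none. They were Ier2 at 35 bp, Junb at 80 bp, Per1 at 102 bp, Fos at 116 bp, Pcna at 128 bp, Hspa5 at 186 bp and Ccna2 at 982 bp. Of the cAMP and PKA signalling list, 3 of 35 (8.57%) were near CREB1: Creb1 itself at 99 bp, Prkaca, the catalytic subunit of protein kinase A, at 113 bp, and Crebbp, the coactivator CBP, at 3481 bp. Nr4a1 and Crem, other known CREB targets, had no vehicle peak of either factor near by: the nearest CREB1 peak was 701843 bp from Nr4a1 and 34306427 bp from Crem. Of the immediate early and AP-1 list, Ier2, Mafk, Junb, Btg1 and Fos were near CREB1, 5 of 33 (15.2%), and Myc at 1729 bp and Fosl2 at 3084 bp near C/EBP beta.

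Lists tied to C/EBP beta and ATF4 held few genes, against 0.513% of all genes. Of 36 genes of the ATF4 amino acid response, 3 (8.33%) were near C/EBP beta: Ndrg1 at 151 bp, Chac1 at 185 bp and Ddit3, which encodes CHOP, at 278 bp. Atf4 itself was near CREB1, at 22 bp. Of 24 aminoacyl-tRNA synthetase genes and their cofactors, Iars at 3 bp and Sars at 1039 bp were near C/EBP beta, and Aars, Aimp2, Aimp1 and Eprs near CREB1. Of 36 C/EBP family and acute phase genes, Trib1 and Ddit3 were near C/EBP beta and none was near CREB1. Trib1 was the 1 of 3 Tribbles genes with a peak. In the list of heme and oxidative stress defence, Hmox1 at 44 bp and Nfe2l2, the antioxidant regulator NRF2, at 1217 bp were near C/EBP beta, and Txn2, the mitochondrial thioredoxin, at 14 bp was near CREB1.

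Few collecting duct genes were near a peak of either factor. Of 40 principal cell genes none was near CREB1, against 5.05% of all genes. Ehf at 11 bp and Kcnj1, the ROMK potassium channel, at 2719 bp were near C/EBP beta. They were 5% of the list, against 0.513% of all genes. Of the 10 defining principal cell markers Kcnj1 was the only one near a peak of either factor. No gene of the 14 intercalated cell markers or the 21 markers of other kidney cells was near either factor. At the shares of all genes, lists this short would hold few or none. Aqp2, the vasopressin-regulated water channel, had its nearest vehicle peak 140966 bp away for CREB1 and 2659090 bp for C/EBP beta. For Cebpb these distances were 673660 and 143273 bp, for Sgk1 8200698 and 1777398 bp, and for Scnn1a, a sodium channel subunit, 274663 and 66267 bp.

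**Figure D5:**
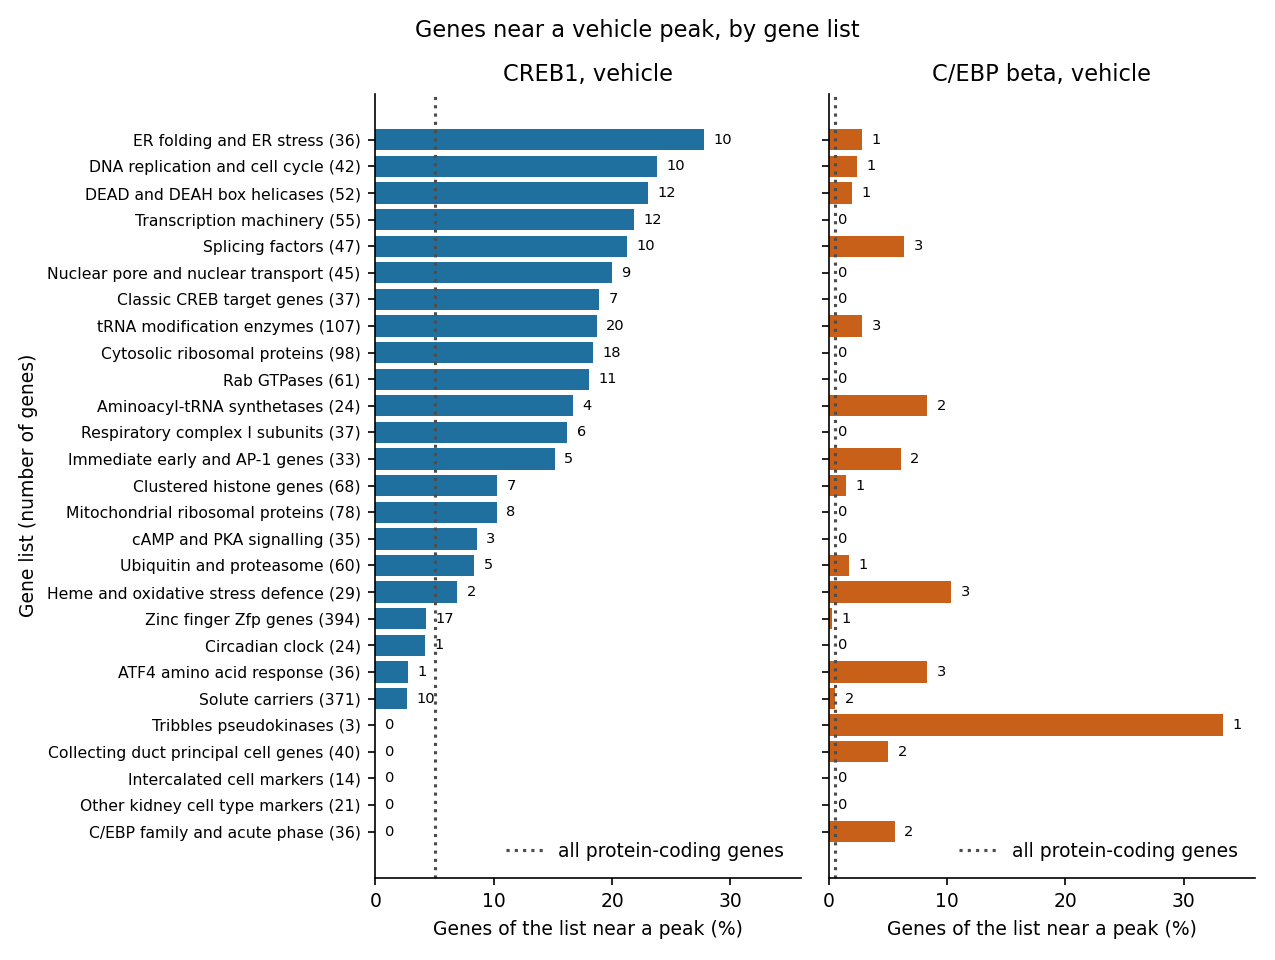
Share of each gene list (percent, with the number of genes in parentheses) with a vehicle peak of CREB1, left, or C/EBP beta, right, within 5000 bp of a gene end; numbers at the bars are genes, and dotted lines mark all protein-coding genes, 5.05% and 0.513%. Of the 27 lists, 18 stood above the line for CREB1 and 15 for C/EBP beta, and 11 held no gene near C/EBP beta. In all but the largest lists 1 gene is enough to pass the C/EBP beta line, as 1 of 60 did in the ubiquitin and proteasome list.

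The classes, which the vehicle lists define, were also counted in the lists after dDAVP. All 98 C/EBP beta-alone genes and all 13 genes of both also had a C/EBP beta peak after dDAVP, a list that held 5.01% of all genes. At the level of peaks, 209 of 209 C/EBP beta vehicle peaks overlapped one after dDAVP. Of the CREB1-alone genes, 563 of 1079 (52.2%) had a CREB1 peak after dDAVP, against 2.67% of all genes. Of the C/EBP beta-alone genes 0 of 98 (0%, 0 to 3.77) had one. That class excludes genes near a CREB1 vehicle peak, and 397 CREB1 vehicle peaks overlapped the list of 406 after dDAVP. The 0 of 98 thus follows largely from how the class was defined. Of the genes of both, 5 of 13 had a CREB1 peak: Ddx19b, Irf2bpl, Man1b1, Rprd1b and Rpusd2. Of the 5 overlapping sites, all had a C/EBP beta peak after dDAVP and the Man1b1 site alone a CREB1 peak. How far list length and depth set these shares cannot be told apart from the treatment.

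Some CREB1-alone genes had a C/EBP beta peak after dDAVP, 140 of 1079 (13.0%, 11.1 to 15.1), against 5.01% of all genes. In 54 of the 140 that peak overlapped the CREB1 vehicle peak, and over all 140 the centres were 842 bp apart at the median. Rps6kb2, Becn1 and Tcf3 are examples, chosen after their values were seen, with centres 11, 11 and 5 bp apart. In the 32 windows overlapped by both such peaks, the C/EBP palindrome was in none (0%, 0 to 10.7), the composite in 1 (3.13%, 0.554 to 15.7), the open core in 9.38% (3.24 to 24.2) and the short CRE in 84.4% (68.2 to 93.1). In the 742 windows under a CREB1 vehicle peak with no C/EBP beta peak in either treatment, the C/EBP palindrome was in 0.539%, the composite in 1 (0.135%), the open core in 7.55% and the short CRE in 85.6%. The intervals of the 32 windows span these shares for the palindrome, the open core and the short CRE, but not for the composite, which rests on 1 window in each set.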

How the data were processed

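CREB1 (4 samples) and C/EBP beta (2 samples) vehicle immunoprecipitates were grouped by their titles. The submitters' processing notes name BWA, SAMtools, MACS2, bedtools and mm10. The C/EBP beta peaks carry a score, deposited by the authors without a stated scale. Their names, per the deposited lists, give replicate 1, MACS2 bandwidth 300, duplicates 1 and q 0.01. How replicates were combined is not given in the sources used here. Genes, starts and promoter windows came from RefSeq tables of GRCm38.p6, with starts for 17274 of 21631 protein-coding genes. Exons were not told apart from introns. The 2 unplaced CREB1 peaks entered counts and overlaps alone. Position shares were compared by Fisher's exact test with Benjamini-Hochberg adjustment over 2 tests, and widths by a permutation test with 100000 resamples (SciPy 1.17.1). Intervals are 95% Wilson intervals and cover counting alone. Gene assignment, overlap and motif steps were tested on simulated data. Named were genes of both factors (some are not reported here), the nearest gene within 5000 bp of the 12 widest CREB1 and 12 best-scored C/EBP beta peaks among genes of a single factor, up to 6 members per list and class, closest first, and 9 fixed genes; others complete a small count or were chosen after their values were seen. Members, lists and motifs were chosen with earlier results of these data known, the open C/EBP core and the narrower patterns after the files were read. Alternatives changed the distance, gene ends, peaks, overlap and windows.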

Additional observations from a re-analysis of the deposited data

How the results depend on the processing

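The distance rule sets the gene counts. At 50000 bp in place of 5000 bp, the genes near CREB1 were 2705, near C/EBP beta 424, near CREB1 alone 2613, near C/EBP beta alone 332 and near both 92. At 1000 bp the genes near C/EBP beta were 55, near C/EBP beta alone 50 and near both 5. With gene starts alone these were 64, 59 and 5, and with the nearest gene of each peak alone the genes of both were 6. Keeping the better-scored 50% of the C/EBP beta list gave 54, 51 and 3, and 2 peaks overlapped. With the 209 widest CREB1 peaks, the genes near CREB1 were 324, near CREB1 alone 323 and near both 1, and 1 peak overlapped. Asking for 50% of the narrower peak left 3 overlaps, and centres within 500 bp gave 5. In windows of genes with the peak within 1000 bp, the CRE palindrome was in 19.9% and the short CRE in 74.3% for CREB1 alone. For C/EBP beta alone the CRE palindrome was in 0%, the C/EBP palindrome in 16.7% and the open core in 40.5%. In windows overlapped by the peak, an alternative chosen after seeing the data, as was the open core, these were 23.6% and 85.5% for CREB1 alone, and 0%, 30.6% and 58.3% for C/EBP beta alone, with the composite in 13.9%. The share of peaks within reach of a gene end and the share inside genes kept their direction and an adjusted p under 0.05 in the 3 alternatives run for each, with differences of 53.2 to 63.5 and of -28.3 to -19.9 points. The width difference was 36 bp against that better-scored 50% (permutation p = 6e-05). No paired analysis was possible because each group has 1 list, and leaving out a replicate was not possible for the same reason. Depth is unknown, so a missing peak limits every count of genes of a single factor.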

Other observations

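Noncoding genes accounted for part of the peaks with no protein-coding gene end within 5000 bp. Another RefSeq gene was within that distance for 18 of 37 such CREB1 peaks (48.6%) and 29 of 121 such C/EBP beta peaks (24.0%). Among them were tRNA genes: the CREB1 peak at chr2:122377372-122377644 was 74 bp from the histidine tRNA gene n-THgtg3, and the C/EBP beta peak at chr3:51358136-51358306 was 133 bp from the proline tRNA gene n-TPtgg7. A CREB1 peak at chr3:96486868-96487036 was 233 bp from the small nuclear RNA gene Gm25890. Rab10os, an antisense RNA gene, had 2 CREB1 peaks, at 29 and 423 bp. These genes were chosen after their values were seen, and near-identical copies of tRNA and small nuclear RNA genes make read placement there uncertain.

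MicroRNA hairpins lay within 5000 bp of a CREB1 peak in 11 cases and of a C/EBP beta peak in 1, Mir7011. The closest was Mir5627, 97 bp from the CREB1 peak whose nearest protein-coding gene, at 148 bp, was Dnajb9, an ER co-chaperone. In each of the 11 CREB1 cases a protein-coding gene end was at most 206 bp from the peak, and in 10 of them it was nearer than the hairpin.

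The X chromosome carries 4.47% of the protein-coding genes. None of the 785 CREB1 vehicle peaks lay on it, nor any of the 406 after dDAVP. C/EBP beta had 1 of 209 there after vehicle, near Morf4l2, and 20 of 2401 after dDAVP. No source used here states a filter on chromosomes.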
